A study of Mus musculus with 24 samples.

Results

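Hybrid piRNA clusters are stretches of the mouse genome, most of them inside protein-coding genes, whose transcripts are cut into PIWI-interacting RNAs (piRNAs). The deposited cluster tables list 214 clusters and name 30 of them hybrid. Of these, 29 are described here and 1 is not analysed here. In all, 25 of the 29 are named for a gene, called the host gene below, and 4 are named for a chromosome band. The members were picked by their cluster names. The host was found by its symbol for 23 clusters, by a RefSeq synonym for pi-Eif2c2 (Ago2), and by position for pi-BC026590 (Fam206a in the deposited tables, Abitram in RefSeq).

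The study knocked a tagged allele into Ddx4, the mouse gene of the germ granule helicase DDX4 (also called VASA). Mouse testis cells of 3 genotypes were used, namely the homozygous knock-in (KK), the heterozygous knock-in (WK) and the wild type (WT). Small RNA was sequenced from round spermatids and from pachytene spermatocytes of KK, WK and WT testes (2 libraries per group), and RNA from round spermatids of KK, WK and WT testes (2 libraries per group) and from CB samples of KK and WK testes (3 libraries per group). The labels call the CB cells germ cells and do not write the abbreviation out, and no WT CB library was analysed here. The cells were isolated by a two-step enzymatic digestion of testis. Ages and strains are not given in the labels used here, and the labels do not say that the libraries of a group came from separate animals, so p-values measure the spread between these libraries, which may be technical.

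piRNAs of the mouse testis are cut from long single-stranded transcripts and guide PIWI proteins to RNA. Clusters are grouped by when their piRNAs accumulate. Prepachytene clusters, mostly the messenger RNAs of ordinary genes, are used early in germ cell life, and pachytene clusters, mostly long non-coding RNAs, are switched on in meiosis by the transcription factor A-MYB (gene Mybl1) together with TCFL5, while hybrid clusters make piRNAs both before and during the pachytene stage. A hybrid cluster inside a gene shares its transcript with the host messenger RNA, so the deposited tables allow both products of the locus to be read side by side.

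The 29 clusters lie on 13 chromosomes and measure 4.665 kb (pi-Exoc8) to 133.494 kb (pi-Strbp), with a median of 28.486 kb. Prepachytene clusters had a median length of 35.4 kb and pachytene clusters of 18.0 kb. The host gene covered at least 99% of the cluster for 21 of 25 named clusters, and the lowest cover was 67.1% for pi-Zfp652. The clusters named for bands overlap RefSeq genes too. The long non-coding RNA 1700001L05Rik covers 100% of 15-qE1-3710, the long non-coding RNA Gm10069 covers 94.7% of 6-qF3-1063, Gm272 covers 90.2% of 13-qA5-156 and the long non-coding RNA 9330102E08Rik covers 41.1% of 6-qF3-3040.

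RefSeq promoter windows, from 250 bases before to 50 bases after the transcript start, were at hand for 20 of the 25 hosts. The window used for a host was that of its RefSeq start nearest to the cluster end on the 5′ side of the gene. For 14 of the 20 hosts this start lay within 100 bases of that end, a closeness that the choice itself favours. The motif counts below use the same windows. Windows of 4 hosts are shown because their clusters carry the main contrasts described below: pi-Mgll and pi-Strbp are long clusters with a higher share in KK than in WT spermatids, and pi-Asb1 and pi-Exoc8 are short clusters with the opposite order or with the largest changes. Capitals mark the letters bound by MYB proteins (TAACTG, or else TAACGG, or else CAACTG, or else CAACGG, on either strand) and the E-box CACGTG. The windows are given 5′ to 3′ on the strand of the gene, from RefSeq on GRCm38.p6.
Mgll, chr6:88724162-88724461, plus strand: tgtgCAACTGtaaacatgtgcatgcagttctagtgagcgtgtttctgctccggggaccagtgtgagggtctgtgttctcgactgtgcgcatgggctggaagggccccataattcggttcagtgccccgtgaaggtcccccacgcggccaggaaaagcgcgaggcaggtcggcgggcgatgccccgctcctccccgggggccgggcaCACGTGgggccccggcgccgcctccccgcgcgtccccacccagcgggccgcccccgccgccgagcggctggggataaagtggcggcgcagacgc
Strbp, chr2:37703296-37703595, minus strand: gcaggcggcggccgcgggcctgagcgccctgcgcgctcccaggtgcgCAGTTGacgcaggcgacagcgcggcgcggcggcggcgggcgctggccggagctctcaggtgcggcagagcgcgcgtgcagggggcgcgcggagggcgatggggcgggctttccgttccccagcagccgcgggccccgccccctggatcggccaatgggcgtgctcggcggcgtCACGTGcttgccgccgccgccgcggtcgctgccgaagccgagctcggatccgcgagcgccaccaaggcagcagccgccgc
Asb1, chr1:91540830-91541129, plus strand: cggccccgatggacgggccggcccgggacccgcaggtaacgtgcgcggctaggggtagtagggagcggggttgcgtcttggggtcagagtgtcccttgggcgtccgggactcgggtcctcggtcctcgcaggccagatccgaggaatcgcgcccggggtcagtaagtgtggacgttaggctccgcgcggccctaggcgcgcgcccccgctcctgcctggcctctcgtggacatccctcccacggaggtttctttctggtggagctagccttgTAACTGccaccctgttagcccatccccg
Exoc8, chr8:124897656-124897955, minus strand: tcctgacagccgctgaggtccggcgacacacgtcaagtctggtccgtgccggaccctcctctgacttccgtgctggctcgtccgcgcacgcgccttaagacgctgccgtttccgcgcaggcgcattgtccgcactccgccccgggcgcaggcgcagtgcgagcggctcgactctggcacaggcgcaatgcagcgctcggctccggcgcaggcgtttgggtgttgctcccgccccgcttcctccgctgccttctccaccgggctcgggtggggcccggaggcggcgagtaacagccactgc
Each of the Mgll, Strbp and Asb1 windows holds a MYB spelling, Mgll and Strbp also hold the E-box, and the Exoc8 window holds neither. Over the 20 host windows, 10 held a MYB spelling (50%), against 28.3% of all 32851 RefSeq windows, and 3 held the E-box (15%), against 7.15% of all windows. These matches describe letters only.

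Every hybrid cluster was listed in every small RNA library, with at least 920 reads. All clusters together had 9.23 to 24.1 M (mega) reads in the spermatid libraries, the KK pair being the shallowest, and 24.2 to 27.3 M reads in the spermatocyte libraries. Spermatid RNA libraries held 15.3 to 24.9 M counts and CB libraries 14.2 to 16.5 M counts. Among the RNA libraries, WT spermatid library 1 stood apart, with 32.7% of its counts on transcripts under 1000 bases against 21.6% to 23.7% in the other spermatid libraries. WK CB library 1 differed from its partners as well, with 283 CPM (counts scaled to library size) of Piwil1 RNA against 796 and 788. The 12 round spermatid markers summed to 10341 to 10581 CPM in KK, 9806 to 10286 CPM in WK and 10496 to 20791 CPM in WT spermatids, none at 0. The targeted gene was checked in Ddx4 RNA. In spermatids it was 121 and 130 CPM in KK, 406 and 403 CPM in WK, and 443 and 521 CPM in WT. In CB it was 303, 306 and 244 CPM in KK and 277, 312 and 365 CPM in WK. The CB ranges overlapped, so Ddx4 RNA did not set the CB genotypes apart.

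Hybrid clusters took a small and variable part of the cluster reads. In spermatids the 29 clusters together held 4.95% and 5.01% of cluster reads in KK, 5.15% and 4.86% in WK, and 3.82% and 3.66% in WT. In spermatocytes they held 6.31% and 6.06% in KK, 3.97% and 4.01% in WK, and 5.20% and 5.21% in WT. The KK and WK values thus lay above both WT values in spermatids, whereas in spermatocytes the KK values lay above and the WK values below WT. Within WT the spermatid values were below the spermatocyte values, and within WK they were above. No test was made of these sums, and their order depends on the total. Within the reads of hybrid and prepachytene clusters alone, the hybrid mean was 25.5% in KK, 33.2% in WK and 40.3% in WT spermatids, and 27.9% in KK, 34.8% in WK and 26.7% in WT spermatocytes.

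For prepachytene clusters too, KK and WK lay above WT in spermatids, and in spermatocytes KK lay above and WK below WT. Their share in spermatids was 15.0% and 13.9% in KK, 10.7% and 9.24% in WK, and 5.88% and 5.06% in WT, and in spermatocytes 16.7% and 15.0% in KK, 7.26% and 7.52% in WK, and 14.2% and 14.0% in WT. Pachytene clusters made up nearly all of the rest, from 76.8% in a KK spermatocyte library to 91.2% in a WT spermatid library. Shares of cluster reads are parts of a whole, so a lower pachytene share by itself raises the other shares. The class profile of the WK spermatocyte libraries lay nearer to that of WT spermatids than to that of WT spermatocytes. The profile of the KK spermatid libraries in turn lay nearer to that of WT spermatocytes than to that of WT spermatids. Their mean pachytene share was 80.4%, against 80.5% in WT spermatocytes and 90.7% in WT spermatids. The profile of the WK spermatid libraries lay between those of WT spermatids and WT spermatocytes, with a mean pachytene share of 84.9%. No value here checks the genotype or cell type of any small RNA library. Every WK spermatocyte value, and every KK and WK spermatid value of the clusters, thus rests on the labels as given.

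**Figure D1:**
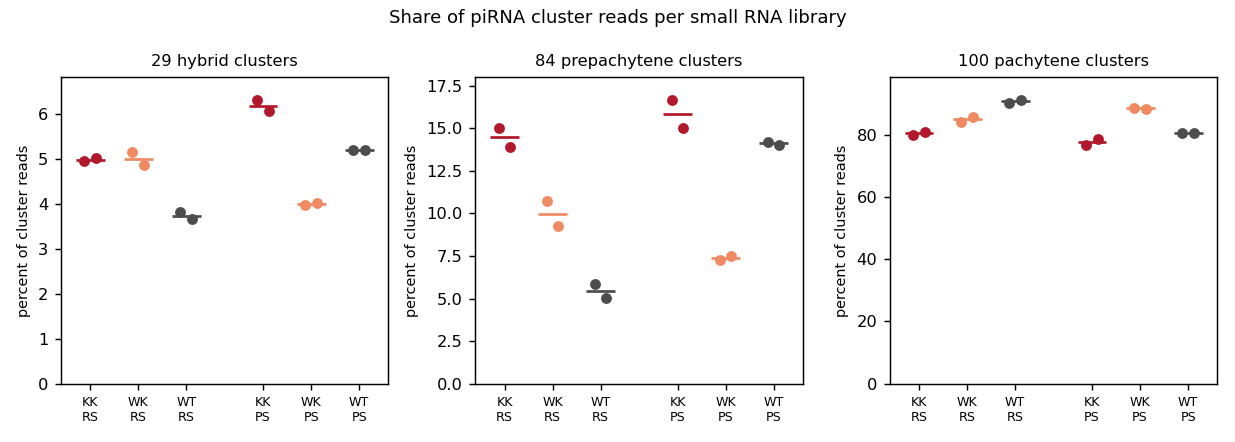
Share of cluster reads (percent) on hybrid, prepachytene and pachytene clusters in each small RNA library, for KK, WK and WT in round spermatids (RS) and pachytene spermatocytes (PS). Points are libraries and lines are group means of 2. Hybrid clusters hold 3.66% to 6.31%, with KK and WK spermatids above WT spermatids.

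Single clusters ranged in mean share from 0.00935% (pi-Tktl2) to 0.496% (pi-Cbl), with a median of 0.132%. The largest 6, which are pi-Cbl, 15-qE1-3710, 6-qF3-1063, pi-Nr2c2, 6-qF3-3040 and pi-Ip6k1, together held 2.32% of the 4.85% mean hybrid share. Per kilobase, 15-qE1-3710 was the densest (0.0311% per kb) and pi-Mrs2 the least dense (0.000963% per kb). The level of host RNA in spermatids did not order these mean shares. Averaged over all spermatid and spermatocyte libraries, cluster share per kb had a rank correlation of 0.068 with host RNA over 25 hosts. Host RNA was taken per length (TPM, as deposited) from spermatids alone, so the sample sets differ.

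Because the reads form a whole, changes of single clusters are given as log2 changes relative to the median of all 214 clusters of the same comparison. The adjusted p beside them comes from edgeR's quasi-likelihood test of the fitted change under TMM scaling, with Benjamini-Hochberg adjustment over all 214 clusters and a threshold of 0.05. A cluster is said to have risen or fallen on that test. With these deep libraries most clusters of any class pass it, so the share of all clusters called is given beside each count.

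In KK against WT spermatids, 9 of 29 hybrid clusters rose and 12 fell, against 39.7% of all clusters rising and 47.2% falling (86.9% in either direction). The median hybrid change was -0.03 relative to all clusters, between the prepachytene median of 0.93 and the pachytene median of -0.48. The split between rises and falls depended on the scaling, being 16 and 5 when libraries were scaled to total cluster reads and 10 and 10 with size factors. Under all 3 scalings, and relative to the median cluster, 9 clusters rose (pi-Mgll, pi-Tacc1, pi-Strbp, pi-Ip6k1, pi-Rc3h1, pi-Zmat3, pi-Ipmk, 13-qA5-156 and pi-Ddx19b) and 5 fell (6-qF3-3040, pi-BC026590, pi-Asb1, pi-Mrs2 and 15-qE1-3710).

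The cluster in Mgll, the gene of monoacylglycerol lipase, made the largest rise. It held 0.254% and 0.155% of cluster reads in KK spermatids, 0.0819% and 0.0685% in WK spermatids, and 0.0503% and 0.0408% in WT spermatids. KK was above WK and WT without overlap, though the KK libraries differed between themselves more than those of other groups. The change of KK against WT was 1.84 (SE 0.20, adjusted p = 1.13e-05), or 3.59-fold, and that of KK against WK was 1.27 (SE 0.20, adjusted p = 0.000115). In spermatocytes pi-Mgll held 0.117% and 0.106% in KK, 0.0520% and 0.0536% in WK, and 0.114% and 0.112% in WT, so that KK and WT overlapped there.

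The cluster in Tacc1, which encodes a coiled-coil protein of the centrosome and spindle, behaved likewise. Its share was 0.188% and 0.181% in KK spermatids, 0.0974% and 0.0875% in WK spermatids, and 0.0629% and 0.0627% in WT spermatids. The 3 genotypes did not overlap, and KK exceeded WT by 1.23 (SE 0.09, adjusted p = 3.90e-07). The cluster in Strbp, the gene of a spermatid RNA-binding protein, held 0.339% and 0.390% in KK spermatids, 0.317% and 0.288% in WK spermatids, and 0.177% and 0.162% in WT spermatids. Here the WK shares lay nearer to KK than to WT. The change was 0.08 for KK against WK, not called under TMM but called under the other scalings. It was 0.77 (SE 0.07, adjusted p = 6.10e-06) for KK against WT and 0.40 (SE 0.07, adjusted p = 0.000122) for WK against WT. Each is relative to the median cluster of its own comparison, and the latter comparisons share the WT libraries. pi-Ip6k1, in the gene of an inositol hexakisphosphate kinase, held 0.334% and 0.410% in KK spermatids, 0.348% and 0.294% in WK spermatids, and 0.190% and 0.158% in WT spermatids. KK and WK overlapped and both lay above WT.

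Falls in KK against WT spermatids were smaller. The band-named cluster 6-qF3-3040 held 0.279% and 0.279% in KK spermatids, 0.384% and 0.401% in WK spermatids, and 0.394% and 0.382% in WT spermatids. Its change in KK against WT was -0.81 (SE 0.06, adjusted p = 6.30e-08), with WK and WT overlapping. The cluster in Asb1, which encodes an ankyrin repeat protein of the SOCS box family, held 0.114% and 0.100% in KK spermatids, 0.147% and 0.153% in WK spermatids, and 0.147% and 0.145% in WT spermatids. KK was again apart from the other genotypes, with a change of -0.77 (SE 0.08, adjusted p = 1.67e-06) against WT. The cluster in Mrs2, the gene of a mitochondrial magnesium channel, held 0.0148% and 0.0154% in KK spermatids, 0.0288% and 0.0270% in WK spermatids, and 0.0198% and 0.0192% in WT spermatids. Its change was -0.70 (SE 0.09, adjusted p = 6.35e-06) for KK against WT and -1.07 (SE 0.09, adjusted p = 2.27e-06) for KK against WK. The densest cluster, 15-qE1-3710, held 0.347% and 0.439% in KK spermatids, 0.421% and 0.431% in WK spermatids, and 0.454% and 0.466% in WT spermatids, the KK libraries lying wide apart.

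**Figure D2:**
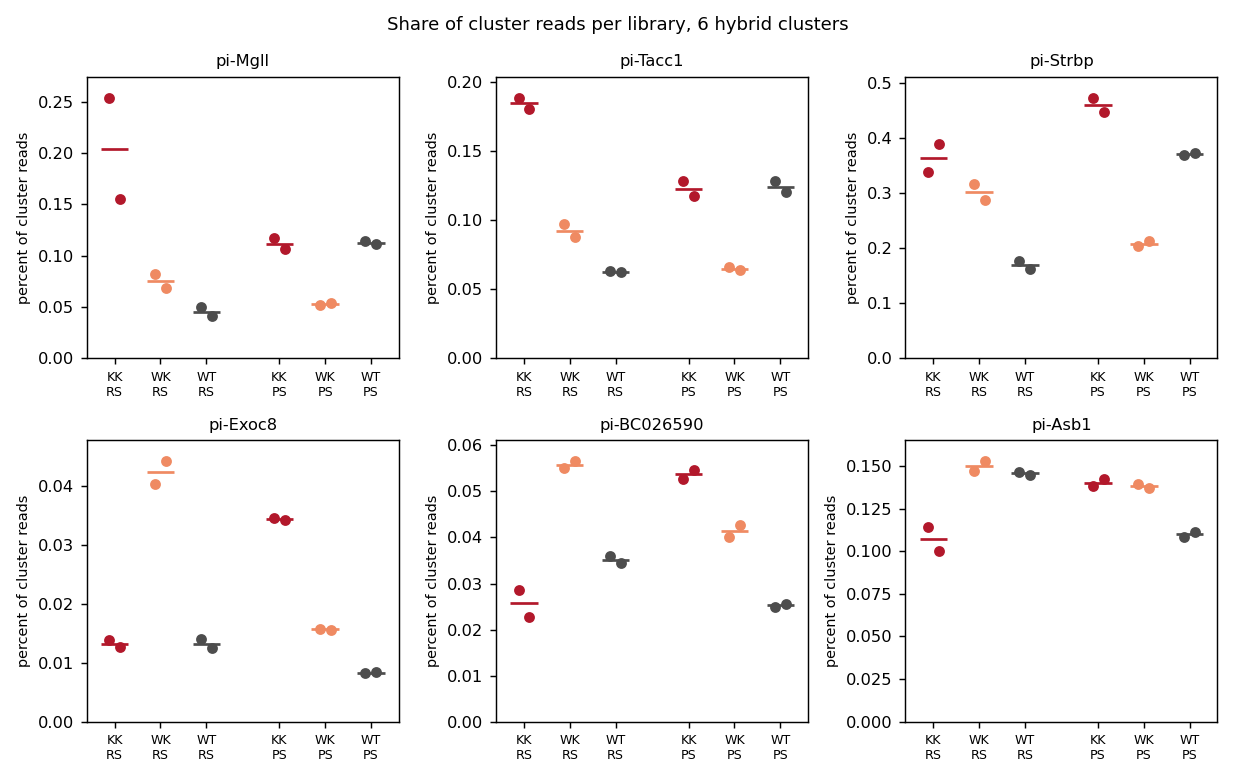
Share of cluster reads (percent) of 6 hybrid clusters in each library, for KK, WK and WT in round spermatids (RS) and pachytene spermatocytes (PS). Points are libraries and lines are means of 2. pi-Mgll and pi-Tacc1 are highest in KK spermatids, while pi-Exoc8 and pi-BC026590 are high in WK spermatids and KK spermatocytes. In KK spermatids pi-Exoc8 overlaps WT spermatids and pi-BC026590 lies below them.

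The order of the groups was different again for pi-Exoc8 and pi-BC026590. The shortest cluster, pi-Exoc8, lies in the gene of a subunit of the exocyst, the complex that tethers secretory vesicles. It held 0.0139% and 0.0127% of cluster reads in KK spermatids, 0.0405% and 0.0443% in WK spermatids, and 0.0140% and 0.0125% in WT spermatids. In spermatocytes it held 0.0346% and 0.0342% in KK, 0.0158% and 0.0156% in WK, and 0.00824% and 0.00837% in WT. WK was thus the high group in spermatids, with KK and WT overlapping, and KK the high group in spermatocytes. The change was 1.88 (SE 0.12, adjusted p = 5.59e-08) for KK against WT spermatocytes, 1.24 (SE 0.11, adjusted p = 2.04e-06) for WK against WT spermatids and -1.85 (SE 0.12, adjusted p = 1.51e-07) for KK against WK spermatids. The KK against WT value in spermatids, -0.32 (adjusted p = 0.00309), was called only under TMM and size factors, not when scaled to total cluster reads.

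The cluster pi-BC026590 held 0.0286% and 0.0228% in KK spermatids, 0.0551% and 0.0565% in WK spermatids, and 0.0359% and 0.0344% in WT spermatids. In spermatocytes it held 0.0528% and 0.0547% in KK, 0.0401% and 0.0427% in WK, and 0.0250% and 0.0256% in WT. The order of the genotypes differed between the cell types, with KK lowest in spermatids and highest in spermatocytes. The cluster 6-qF3-1063 held 0.342% and 0.339% in KK spermatids, 0.450% and 0.444% in WK spermatids, and 0.282% and 0.284% in WT spermatids. In spermatocytes it held 0.485% and 0.474% in KK, 0.303% and 0.2996% in WK, and 0.323% and 0.320% in WT, so that its high groups were those of pi-Exoc8.

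In WK against WT spermatids, 15 hybrid clusters rose and 8 fell, against 43.5% of all clusters rising and 33.6% falling (77.1% in either direction). The split was 19 and 3 when scaled to total cluster reads. All 15 rises, and 3 of the falls, held under every scaling tried. Fewer hybrid clusters were called without WK library 1, in a fit whose share of all clusters called is not given here. The 3 falls were pi-Tbl2, pi-Pou6f1 and pi-Eif2c2. The cluster in Tbl2, which encodes a WD repeat protein, held 0.178% and 0.215% in KK spermatids, 0.140% and 0.135% in WK spermatids, and 0.188% and 0.197% in WT spermatids. The cluster in Ago2, the gene of the Argonaute nuclease of the microRNA and small interfering RNA pathways, held 0.253% and 0.244% in KK spermatids, 0.162% and 0.147% in WK spermatids, and 0.207% and 0.198% in WT spermatids. Both were lowest in WK, with changes of -0.92 (SE 0.08, adjusted p = 5.16e-06) and -0.82 (SE 0.07, adjusted p = 4.29e-06) against WT.

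KK against WK spermatids gave 7 rises and 13 falls, against 35.0% of all clusters rising and 37.4% falling (72.4% in either direction). All 7 rises and 11 falls held under every scaling. The largest clusters took part in the falls. pi-Cbl, in the gene of an E3 ubiquitin ligase, held 0.447% and 0.470% in KK spermatids, 0.565% and 0.555% in WK spermatids, and 0.359% and 0.338% in WT spermatids. pi-Nr2c2, in the gene of an orphan nuclear receptor, held 0.284% and 0.230% in KK spermatids, 0.422% and 0.342% in WK spermatids, and 0.232% and 0.211% in WT spermatids. For both, WK was the high group, and for pi-Nr2c2 the KK and WT ranges overlapped.

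In spermatocytes, KK against WT gave 19 rises and 1 fall among the hybrid clusters, against 55.1% of all clusters rising and 13.1% falling (68.2% in either direction). Relative to the median cluster the median hybrid change was 0.04, and the split was 12 and 2 when scaled to total cluster reads and 6 and 8 with size factors. Only 7 calls held under every scaling, the rises of pi-Exoc8, pi-BC026590, 6-qF3-1063, pi-Kctd7, pi-Nr2c2 and pi-Zfp382 and the fall of pi-Eif2c2. The number of calls, 20 in all, moved when single libraries were left out. It was lowest without a WK spermatocyte library, although WK is not part of this comparison. The share of all clusters called in those fits is not given here, so this is not read as particular to hybrid clusters. WK against WT spermatocytes gave 8 rises and 10 falls, against 45.3% of all clusters rising and 35.0% falling (80.4% in either direction), with a split of 4 and 19 when scaled to total cluster reads. Of these, 4 rises (pi-Exoc8, pi-BC026590, pi-Asb1 and 6-qF3-3040) and all 10 falls held under every scaling, pi-Mrs2 (-0.96) and pi-Mlc1 (-0.87) being the largest falls.

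The change from spermatocyte to spermatid was read in the WT libraries. There 12 hybrid clusters rose and 12 fell, against 48.6% of all clusters rising and 37.9% falling (86.4% in either direction), and the split was 5 and 20 when scaled to total cluster reads and 10 and 15 with size factors. The median hybrid change of -0.40 lay between the prepachytene median of -1.10 and the pachytene median of 0.40. In all, 5 rises held under every scaling (pi-Exoc8, pi-BC026590, pi-Asb1, 6-qF3-3040 and 15-qE1-3710), together with 12 falls, of which pi-Mrs2 (-1.24), pi-Ip6k1 (-1.14) and pi-Mgll (-1.08) were the largest. The same difference of spermatids minus spermatocytes had a median over hybrid clusters of -0.18 in KK and 0.09 in WK, given without a test.

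Whether the KK effect differed between spermatids and spermatocytes was tested as an interaction. Among the hybrid clusters 3 had a more positive KK against WT effect in spermatids and 17 a more negative one, against 29.9% and 50.0% of all clusters (79.9% in either direction). The split was 12 positive and 7 negative when scaled to total cluster reads. Under every scaling the 3 positive (pi-Mgll 1.88, pi-Tacc1 1.27 and pi-Zmat3 0.94) and 7 negative differences held. pi-Exoc8 (-2.35) and pi-BC026590 (-1.84) had the largest negative differences.

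**Figure D3:**
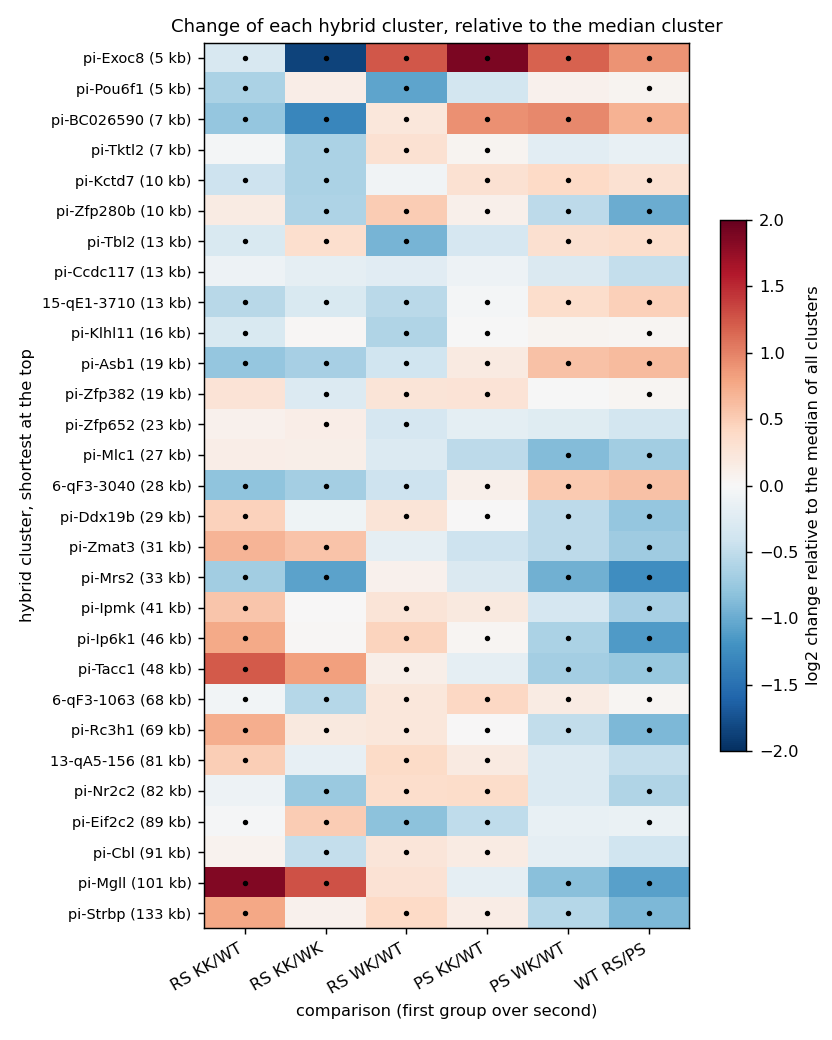
Log2 change of each of the 29 hybrid clusters relative to the median of 214 clusters in 6 comparisons (colour, cut at 2 on either side), for round spermatids (RS) and pachytene spermatocytes (PS), with clusters ordered by length in kb. A black dot marks an adjusted p below 0.05 under TMM scaling. pi-Mgll, pi-Tacc1 and pi-Strbp are red in KK against WT spermatids and blue in WT spermatids against spermatocytes.

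Cluster length, which the choice of members did not use, went with these changes. In KK against WT spermatids the 14 clusters shorter than the median gave 0 rises and 8 falls and the 15 others gave 9 rises and 4 falls, in a split made after the values were seen. These counts depended on the scaling: with total cluster reads the shorter clusters gave 4 rises and 3 falls and the others 12 and 2, and with size factors 1 and 8 against 9 and 2. The rank correlation of length with the change was 0.60 over the 29 clusters, and it does not depend on the scaling, which shifts all clusters alike. It was -0.59 for WT spermatids against spermatocytes and -0.54 for WK against WT spermatocytes, but -0.07 for KK against WT spermatocytes. The correlation was not particular to hybrid clusters: for KK against WT spermatids it was 0.31 over 84 prepachytene and 0.10 over 100 pachytene clusters, and for WT spermatids against spermatocytes -0.55 and -0.06. The points share libraries, and longer members also had a lower share per kb, whose correlation with the KK against WT change in spermatids was -0.36.

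**Figure D4:**
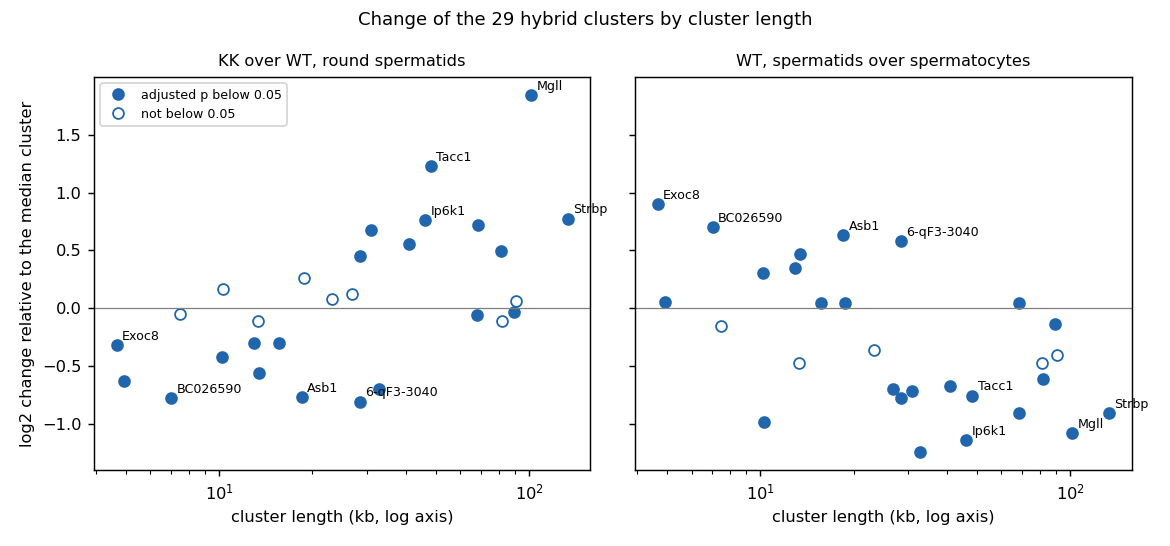
Log2 change relative to the median cluster (vertical) against cluster length in kb (log axis) for the 29 hybrid clusters, in KK over WT round spermatids (left) and in WT spermatids over spermatocytes (right). Filled points had an adjusted p below 0.05. The rank correlation is 0.60 on the left and -0.59 on the right.

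The RNA of the host genes was then compared. In bulk samples fewer cells of a type and less RNA per cell cannot be told apart. All 25 hosts passed the filter on low counts. In spermatids their mean levels ran from 0.368 TPM (Ago2) to 261.8 TPM (Ip6k1) with a median of 8.97 TPM, and in CB from 10.3 TPM (Zfp280b) to 224 TPM (Strbp) with a median of 73.2 TPM. Levels in CB and spermatids come from different kits and were not tested against each other. Reads of overlapping genes could not be separated in the spermatid libraries, for which no strand setting is stated.

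In KK against WT spermatids 1 of 25 hosts rose and 1 fell by edgeR's quasi-likelihood test, against 2.39% and 0.472% of 17809 genes (2.86% in either direction). Mgll RNA was 56.8 and 58.2 CPM in KK spermatids, 13.8 and 10.9 CPM in WK spermatids, and 12.5 and 15.1 CPM in WT spermatids. KK stood apart, with a log2 change of 2.06 (SE 0.18, adjusted p = 0.00900), or 4.16-fold, against WT and of 2.22 (SE 0.18, adjusted p = 0.0160) against WK. Mgll was thus the host whose RNA and whose piRNA cluster both rose in KK spermatids. Ccdc117 RNA was 27.6 and 29.4 CPM in KK spermatids, 64.6 and 61.6 CPM in WK spermatids, and 77.7 and 84.5 CPM in WT spermatids. The genotypes did not overlap, and the change was -1.51 (SE 0.13, adjusted p = 0.00890) for KK against WT and -1.15 (SE 0.13, adjusted p = 0.0225) for KK against WK. The cluster pi-Ccdc117 held 0.0687% and 0.0894% of cluster reads in KK spermatids, 0.0819% and 0.0753% in WK spermatids, and 0.0698% and 0.0654% in WT spermatids, with overlapping ranges and no call.

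KK against WK spermatids called the same 2 hosts, against 1.36% of genes rising and 0.371% falling (1.73% in either direction). No host was called in WK against WT spermatids, where 0 of 17809 genes (0%) passed by edgeR, 1296 genes and 4 hosts had an unadjusted p below 0.05, and DESeq2 called 5 genes and 0 hosts. The number of calls turned on single libraries, for hosts and for all genes alike. For KK against WT the count of called hosts was 9 without WT library 1, the library that stood apart (26.4% of all genes called), and 12 without WT library 2 (45.1% of genes). It was 0 without any one of the KK or WK libraries (0% to 0.0961% of genes) and 0 in a fit of the compared libraries alone (0.0867% of genes). For KK against WK it was 10 without WT library 1 (30.1% of genes), without WT library 2 (29.2%) or in a fit of the compared libraries alone (32.25%), and 0 without any one of the others (0% of genes). For WK against WT it was 1 without WT library 1 (0.863% of genes) and 13 without WT library 2 (42.0% of genes). The log2 change of Mgll stayed between 1.93 and 2.21 and that of Ccdc117 between -1.57 and -1.44 when each library was left out of the KK against WT comparison. The 10 immune marker genes summed to 42.3 to 43.9 CPM in KK spermatids, 31.6 to 32.3 CPM in WK spermatids and 20.2 to 23.3 CPM in WT spermatids, with 2 of 10 called higher in KK against WT. The 10 Sertoli cell markers, of which 7 were tested and 2 called lower, summed to 32.8 CPM in both KK libraries, 56.2 to 57.5 CPM in WK and 55.6 to 65.7 CPM in WT spermatids. The 6 peritubular and vascular markers, of which 5 were tested and 2 called higher, summed to 47.7 to 48.9 CPM in KK, 34.2 to 35.3 CPM in WK and 22.0 to 27.5 CPM in WT spermatids. The 7 Leydig cell markers, of which 4 were tested and 1 called higher, summed to 15.2 to 16.6 CPM in KK, 8.23 to 9.95 CPM in WK and 5.54 to 7.95 CPM in WT spermatids. No marker of these 4 lists was at 0 in all libraries, and the part of these cells in the host values was not tested.

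In KK against WK CB, 8 of 25 hosts rose, 0 fell and 17 were not called, against 1.16% of 19335 genes rising and 0.559% falling (1.72% in either direction). At an unadjusted p below 0.05 there were 15 of 25 hosts, against 14.5% of genes, and the median host change was 0.33 on the log2 scale, against -0.005 for all genes. Every KK library exceeded every WK library for 16 of 25 hosts, against 11.5% of all genes, and the reverse held for 0 hosts, against 9.78%. Hosts were well expressed in CB, with a median of 109 CPM against 6.80 CPM over all tested genes, and all 25 lay above that median.

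The hosts that rose code for proteins of unlike kinds. Among metabolic enzymes, Tktl2, a transketolase-like gene, was 321, 324 and 283 CPM in KK CB and 162, 174 and 209 CPM in WK CB. Its change of 0.77 (SE 0.12, adjusted p = 0.0120) was the largest of the hosts. Mgll was 219.8, 207 and 227 CPM in KK CB and 159, 145 and 133 CPM in WK CB, a change of 0.58 (SE 0.10, adjusted p = 0.0222). The groups did not overlap for either enzyme.

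Among RNA-handling proteins, Ago2 was 191, 181 and 191 CPM in KK CB and 107, 126 and 127 CPM in WK CB, a change of 0.64 (SE 0.10, adjusted p = 0.0130). Ddx19b, a DEAD-box helicase of messenger RNA export, was 414, 405 and 425 CPM in KK CB and 308, 282 and 289.7 CPM in WK CB, a change of 0.50 (SE 0.10, adjusted p = 0.0309). Both were higher in each KK library. Ago2 RNA was only 0.599 to 3.62 CPM in the spermatid RNA libraries, while its cluster had reads in every spermatid small RNA library. Of the other RNA-binding hosts, Rc3h1 (-0.04), Strbp (0.06) and Zmat3 (0.42, adjusted p = 0.112) were not called.

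Among proteins of the cytoskeleton, vesicles and scaffolds, Tacc1 was 398, 385 and 403 CPM in KK CB and 271, 271 and 263 CPM in WK CB, a change of 0.56 (SE 0.09, adjusted p = 0.0163). Exoc8 was 125, 124 and 133 CPM in KK CB and 90.8, 86.6 and 83.6 CPM in WK CB, a change of 0.55 (SE 0.09, adjusted p = 0.0173). Tbl2, at 194, 195 and 206 CPM in KK CB and 119, 139 and 136 CPM in WK CB, changed by 0.59 (SE 0.10, adjusted p = 0.0173). Kctd7, a member of the potassium channel tetramerization domain family, was 65.8, 62.6 and 67.9 CPM in KK CB and 38.8, 49.1 and 46.0 CPM in WK CB, a change of 0.55 (SE 0.11, adjusted p = 0.0418). In all 4 the KK libraries lay above the WK libraries. None of these 4 genes was called in KK against WT or WK spermatids.

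The number of called hosts in CB turned on single libraries as well. It was 14 without WK library 1, the library with low Piwil1, where 2213 of 20033 genes were called. It was 1 without WK library 2 (0.650% of genes), WK library 3 (0.530%) or KK library 3 (0.376%), and 0 without KK library 1 (0.256%) or KK library 2 (0.282%). The 8 log2 changes kept their sign throughout, from 0.45 to 0.87. Beside these values, the 12 round spermatid markers summed to 1062 to 1097 CPM in KK CB and 1234 to 1926 CPM in WK CB, with 2 called lower. The 7 Leydig cell markers summed to 164 to 171 CPM in KK CB and 90.5 to 145 CPM in WK CB, with none called. The 10 immune markers summed to 16.1 to 18.5 CPM in KK CB and 7.77 to 14.5 CPM in WK CB, with 1 of 8 tested called higher. The 6 peritubular and vascular markers, none called, summed to 47.3 to 48.8 CPM in KK CB and 33.2 to 46.6 CPM in WK CB. The 10 Sertoli cell markers, none called, summed to 92.7 to 95.8 CPM in KK CB and 75.5 to 140 CPM in WK CB. Sums of spermatogonia markers (none called) and meiotic prophase markers (1 of 13 called lower) overlapped between KK and WK CB as well. No marker of these lists was at 0 in all libraries. Their part in the host values was not tested.

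**Figure D5:**
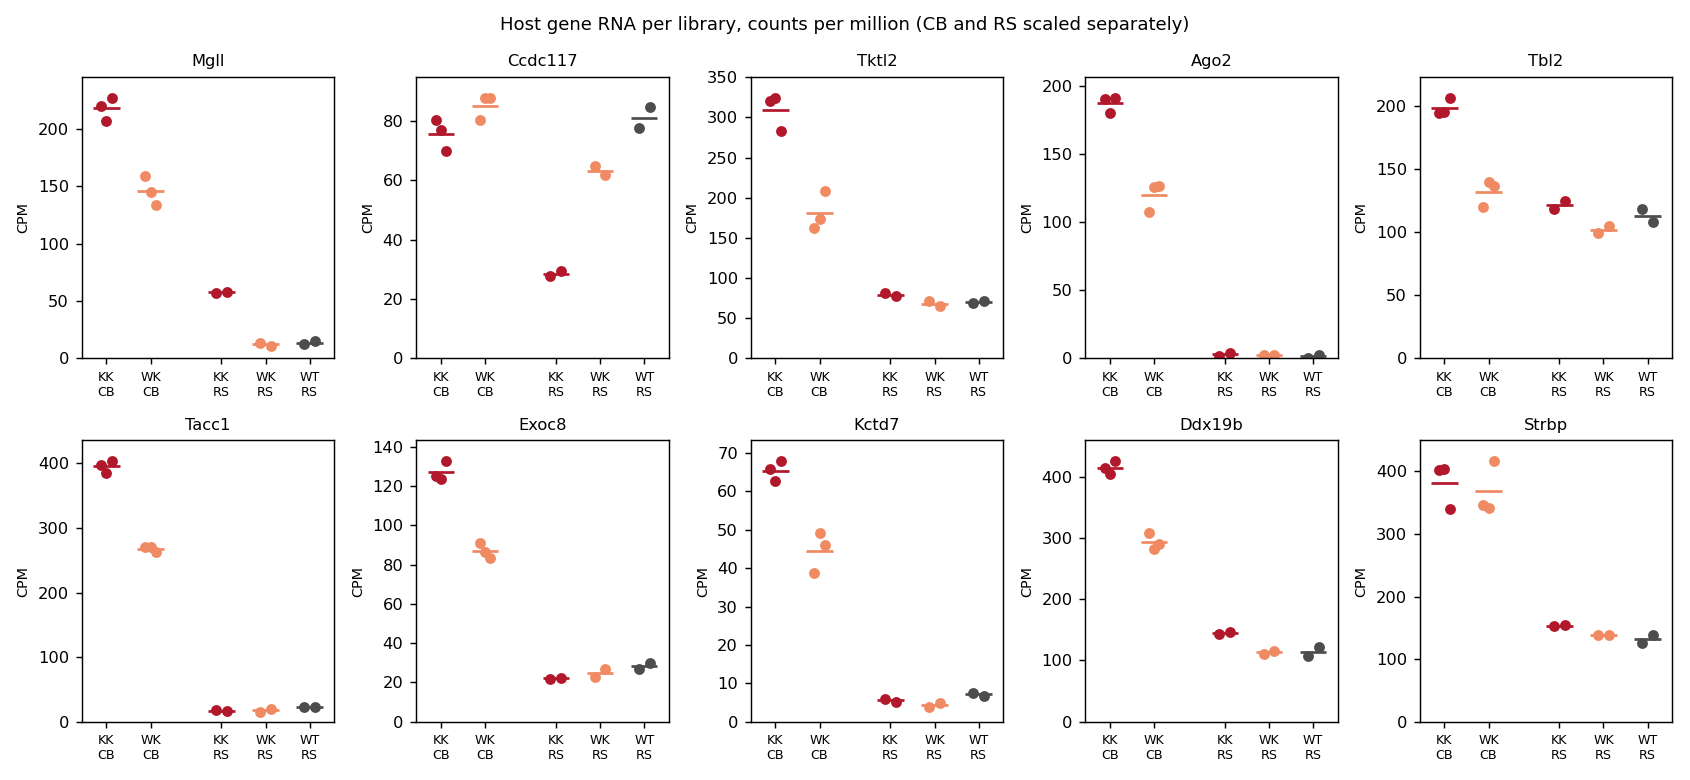
RNA of 10 host genes in each library (CPM under TMM scaling, CB and spermatids scaled separately), for KK and WK in CB and for KK, WK and WT in round spermatids (RS). Points are libraries and lines are means of 3 in CB and 2 in spermatids. Mgll is higher and Ccdc117 lower in KK spermatids, and 8 hosts are higher in KK CB, while Strbp, shown for contrast, overlaps between KK and WK CB.

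The KK against WK effect differed between CB and spermatids for 2 of 25 hosts, 1 in each direction, against 0.0636% of 22002 genes with a more positive and 0.145% with a more negative effect in CB (0.209% in either direction). Mgll had the smaller rise in CB, with a difference of -1.58 (SE 0.21, adjusted p = 0.0122). Ccdc117, at 80.3, 76.7 and 69.7 CPM in KK CB and 80.1, 87.5 and 87.7 CPM in WK CB, had a difference of 1.03 (SE 0.18, adjusted p = 0.0351). The Mgll difference lost its call without WK spermatid library 2, either KK spermatid library or KK CB library 1, and the Ccdc117 difference held it only without either WT spermatid library or WK CB library 1. The kits differ between CB and spermatids and cannot be told apart from the kind of sample here.

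The change of the piRNA cluster was set against that of the host RNA across hosts. The rank correlation in KK against WT spermatids was 0.12 over 25 hosts and 0.00 without Mgll. For KK against WK it was -0.17 in spermatids (-0.32 without Mgll), and 0.12 between spermatid clusters and CB RNA (0.02 without Mgll). Asb1 shows the difference: its cluster fell in KK against WT spermatids, whereas its RNA was 78.1 and 77.6 CPM in KK spermatids, 72.3 and 67.3 CPM in WK spermatids, and 91.6 and 74.8 CPM in WT spermatids, with KK inside the WT range. The Tacc1 cluster rose, whereas its RNA was 17.4 and 15.9 CPM in KK spermatids, 15.5 and 19.6 CPM in WK spermatids, and 22.2 and 22.1 CPM in WT spermatids. By edgeR the RNA change of KK against WT was -0.41 (adjusted p = 0.219), without a call. For the band-named clusters 1 gene each was tested, except that Gm272 did not pass the low-count filter in spermatids. Of these 4 genes only 9330102E08Rik, which covers 41.1% of its cluster, was called. Its change was 0.51 (SE 0.10, adjusted p = 0.0343) in KK against WK CB, where 1.72% of all genes were called.

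The wider piRNA pathway, a list of 30 genes of which 29 were tested, was read beside the hosts. In KK against WT spermatids, where 2.86% of all genes were called, 2 of the 29 rose, Piwil2 (1.23, adjusted p = 0.0312), the gene of the PIWI protein MILI, and Tdrd1 (1.15, adjusted p = 0.0337), the gene of a Tudor protein of germ granules, and Ddx4 fell (-1.95, adjusted p = 0.00543). In KK against WK spermatids, with 1.73% of genes called, 1 gene, Ddx4, fell and none rose, and in WK against WT spermatids, with 0% of genes called, none was. In CB, where 1.72% of all genes were called, 3 rose and 0 fell: Spocd1 (0.71, adjusted p = 0.0329), which acts in piRNA-directed DNA methylation, Henmt1 (0.52, adjusted p = 0.0389), the methyltransferase of piRNA 3′ ends, and the host gene Ago2. The KK against WK effect differed between CB and spermatids for 1 of the 29, Ddx4 (1.59, adjusted p = 0.0122), against 0.209% of all genes. Ddx4 itself was not called in KK against WK CB (-0.16, adjusted p = 0.649). The transcription factor genes Mybl1 and Tcfl5 were not called in any of these comparisons. In KK against WT spermatids their log2 changes were -0.24 (SE 0.20) and -0.07 (SE 0.10), and those of Piwil1, Mov10l1 and Pld6, which code for the PIWI protein MIWI, an RNA helicase and a nuclease of piRNA biogenesis, were -0.34, 0.40 and -0.07, also without a call.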

How the data were processed

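The members and gene lists were chosen with earlier results of these data known. The authors deposited whole-number counts of small RNA reads per piRNA cluster, and for RNA tables of expected counts, TPM and FPKM per gene, per the file headers. No quantifier, aligner or handling of multiply matching reads is stated. The submitters' processing notes list Trim Galore and mm10. Per the labels' protocols, spermatid RNA libraries used the NEBNext Ultra kit and CB libraries a strand-specific kit without selection of polyadenylated RNA. Library totals beyond cluster reads were not used, so a small RNA value is a percent of the deposited cluster counts. The deposited TPM values served only for levels between genes, and the deposited FPKM values and the isoform tables were not used.

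Expected counts were rounded and tested with edgeR 4.0.16 in R 4.3.3 (quasi-likelihood test with group as the only term, after TMM scaling and the filterByExpr filter). The 12 small RNA libraries were fitted together, as were the 6 spermatid RNA libraries, the 6 CB libraries, and all 12 RNA libraries for the interaction. All adjusted p-values are Benjamini-Hochberg values from edgeR over every cluster or gene tested, and the SE is the change divided by the root of the F statistic. Values per library are given for the 6 clusters of largest mean share, for the 10 of smallest adjusted p in a genotype comparison and for hosts called in any comparison. The clusters pi-Mgll, pi-Ccdc117, pi-Mlc1 and pi-Zmat3 and the RNA of Rc3h1, Strbp and Zmat3 were given values after these were seen. Alternatives were DESeq2 1.42.0, other scalings, no filter, a replicate block, the compared libraries alone, removal of a trend on gene length, and each library left out. The replicate numbers were not shown to pair the samples, and no pair of libraries matched within counting noise. The fits were tested on simulated counts. In the simulated cluster counts a small part of the clusters was changed, up or down at random. They therefore do not test the TMM scaling where whole classes of clusters shift in the same direction.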

Additional observations from a re-analysis of the deposited data

Results flagged for a closer look

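The effect of KK against WT on a cluster's share differed between spermatids and spermatocytes, by the interaction term of edgeR's quasi-likelihood test, for 20 of 29 hybrid clusters, against 79.9% of all clusters. Differences are spermatids minus spermatocytes, on the log2 scale relative to the median cluster. The calls were made on the fitted difference under TMM, whose median over all clusters was -0.28, not on these relative values. Positive differences were 1.88 for pi-Mgll, 1.27 for pi-Tacc1 and 0.94 for pi-Zmat3. Negative differences beyond 1 were -2.35 for pi-Exoc8, -1.84 for pi-BC026590, -1.10 for pi-Asb1 and -1.06 for 6-qF3-3040. Smaller negative differences were -0.87 for pi-Kctd7, -0.66 for 15-qE1-3710, -0.62 for pi-Nr2c2, -0.61 for 6-qF3-1063, -0.56 for pi-Mrs2, -0.43 for pi-Klhl11 and -0.41 for pi-Pou6f1. The smallest were -0.24 for pi-Tktl2, -0.23 for pi-Cbl, -0.15 for pi-Ccdc117, -0.15 for pi-Zfp382, -0.11 for pi-Tbl2 and -0.074 for pi-Zfp280b. With other scalings the split of 3 positive and 17 negative differences was 12 and 7 (total cluster reads) and 12 and 9 (size factors). Of the 20 calls, 10 held under every scaling.

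For host RNA, the effect of KK against WK differed between CB and spermatids for Ccdc117 (1.03) and Mgll (-1.58), as CB minus spermatids.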

How the results depend on the processing

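Of 83 cluster values, the same call and direction were kept by 71 with size factors, 72 with DESeq2 and 63 with scaling to total cluster reads. They were kept by 83 with the replicate block or no filter, and by 62 of 72 in fits of the compared libraries alone. These values cover only the 6 clusters of largest mean share and the 10 of smallest adjusted p. pi-Mgll and pi-Zmat3 are not among them, and for these clusters only the scaling was varied. Directions turned with size factors, and likewise with DESeq2, for 15-qE1-3710 in KK against WT spermatocytes (-0.073) and for the pi-Tbl2 interaction (0.035). With total cluster reads they turned in KK against WT spermatids for 6-qF3-1063 (0.27), pi-Exoc8 (0.0058), pi-Eif2c2 (0.30) and pi-Tbl2 (0.032), in WK against WT spermatids for 6-qF3-3040 (0.016) and pi-Asb1 (0.041), in WK against WT spermatocytes for 6-qF3-1063 (-0.093), in WT spermatids against spermatocytes for 6-qF3-1063 (-0.18) and pi-Eif2c2 (-0.36), and in the interaction for pi-Cbl (0.073) and pi-Tbl2 (0.19). In fits of the compared libraries alone they turned for 6-qF3-1063 (0.014) and pi-Eif2c2 (0.045) in KK against WT spermatids and for pi-Eif2c2 (-0.17) in WT spermatids against spermatocytes. With 1 library left out, ranges crossing 0 were -0.23 to 0.039 (6-qF3-1063) and -0.22 to 0.081 (pi-Eif2c2) in KK against WT spermatids, -0.026 to 0.27 (15-qE1-3710) in KK against WT spermatocytes, -0.12 to 0.19 (pi-Eif2c2) in WT spermatids against spermatocytes, and -0.54 to 0.019 (pi-Cbl) and -0.51 to 0.15 (pi-Tbl2) in the interaction. All these are fitted log2 changes, not relative to the median cluster, whose own change under TMM, size factors and total reads was -0.13, -0.03 and 0.33 in KK against WT spermatids, and the cause of the turns was not tested. Counts of called clusters with 1 library left out were 15 to 26 for WK against WT spermatids and 10 to 22 for KK against WT spermatocytes.

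Without the largest cluster, pi-Cbl, the hybrid share was 4.52% (KK), 4.44% (WK) and 3.39% (WT) in spermatids and 5.51% (KK), 3.59% (WK) and 4.67% (WT) in spermatocytes. With pachytene reads left out of the total it was 25.5% (KK), 33.2% (WK) and 40.3% (WT) in spermatids and 27.9% (KK), 34.8% (WK) and 26.7% (WT) in spermatocytes.

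Called hosts with 1 library left out numbered 0 to 12 (KK against WT spermatids), 0 to 10 (KK against WK spermatids), 0 to 13 (WK against WT spermatids), 0 to 14 (CB) and 0 to 2 (interaction of CB and spermatids). Removing the trend on gene length gave 4 hosts in KK against WT spermatids, where 14.1% of all genes were called. It gave 3 in KK against WK spermatids (9.93% of genes) and 6 in CB (1.44%). Fits of the compared libraries alone gave 0 in KK against WT spermatids (0.0867% of genes) and 10 in KK against WK spermatids (32.25%). With the replicate block the counts were 0 in KK against WK spermatids, 1 in CB and 1 in the interaction. The replicate numbers were not shown to pair the libraries: deviations of libraries with the same number correlated from -0.18 to -0.01 in CB, from -0.13 to 0.11 in spermatid RNA and from -0.44 to 0.76 in small RNA. With 2 libraries in most groups, small changes were not resolved.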
